A study of Homo sapiens with 6 samples.

Results

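Knockdown of the long non-coding RNA NRAD1 in MDA-MB-468 cells was examined here for the epidermal growth factor receptor (EGFR) family, also called the ErbB family, for its ligands, and for ERBIN, a scaffold protein that binds ERBB2. MDA-MB-468 is a triple-negative, basal-like breast cancer cell line known for amplified EGFR. Treatment lasted 48 h, with 15 nM of GapmeR#4, which targets NRAD1, in 3 samples and 15 nM of a negative control GapmeR in 3 samples. GapmeRs are antisense oligonucleotides that direct RNase H to the bound RNA, and both groups received one together with the same transfection reagent. Only 1 targeting GapmeR was put on the arrays, so effects of NRAD1 loss and of this oligonucleotide itself cannot be told apart. Total RNA of each sample was measured on 1 Affymetrix Human Gene 2.0 ST array as log2 signals of 53617 transcript clusters, in which the platform gathers the probes of a gene. The submitters call the samples biological replicates but do not describe separate cultures, and the p-values rest on the spread among these arrays, which may be technical.

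Members were found by gene symbol among 10 names: the receptors EGFR, ERBB2 and ERBB3, the ligands EREG, EPGN, AREG, BTC, HBEGF and TGFA, and ERBIN. The platform annotation names 7 of them, each by 1 transcript cluster, among 14884 named genes. AREG has no symbol there and was found through the study's supplemental gene table, which makes 8 measured members. The study cites that table for genes changed after knockdown of NRAD1 or of the enzyme ALDH1A3 in these cells. AREG came from its ALDH1A3 part, and a member without a platform symbol could enter only if listed there. ERBB2 and TGFA had no named transcript cluster and were not measured here. The 10 names were picked with this same GapmeR#4 comparison in view, so the changes below describe these genes, and their p-values are no independent support for a change in the family.

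The ErbB receptors are tyrosine kinases that pair on binding a ligand and signal through the RAS, PI3K and STAT pathways. The ligands are made as membrane-anchored precursors and are shed by ADAM proteases. EPGN (epigen), AREG (amphiregulin) and TGFA act through EGFR, while EREG (epiregulin), BTC (betacellulin) and HBEGF also bind ERBB4. ERBB3 has a kinase of very low activity, binds neuregulins and signals mainly as the partner of ERBB2. In breast epithelium the family drives growth and ductal development.

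The ligands split after knockdown. On all 3 GapmeR#4 arrays EPGN, EREG and AREG were above their control range and BTC was below its own, while HBEGF overlapped between the groups. ERBIN had the largest change of all members, a 4.02-fold decrease. The receptors EGFR and ERBB3 were lower by 1.29-fold and 1.36-fold, and neither passed the test. By limma, with Benjamini-Hochberg adjustment across the whole array, 2 of the 8 measured members were called lower and 3 higher (adjusted p under 0.05). Under the methods' t-test 0 were called lower and 0 higher, where 4 transcript clusters were lower and 8 higher in all. Limma without control replicate 2 also called 0 lower and 0 higher, with 23 transcript clusters lower and 44 higher in all. With every array kept, limma called 1.42% of all transcript clusters lower and 1.15% higher. The groups did not overlap for 4 members that were lower and 3 that were higher, against 10.8% and 12.2% of all transcript clusters. Nothing is read from these shares, since the names were picked on this comparison. The median log2 change of the 8 members was -0.09 and that of all transcript clusters 0.02. These are bulk RNA measurements, so fewer cells with a transcript and less of it per cell cannot be told apart.

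**Figure D1:**
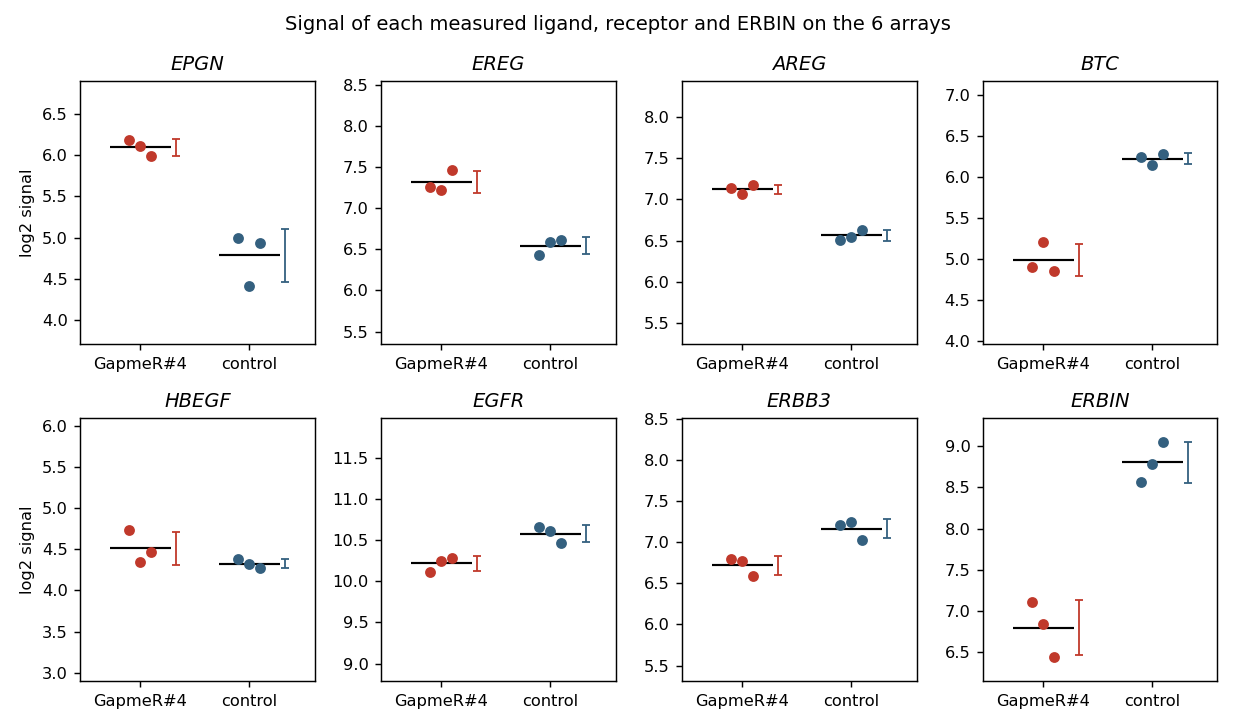
Log2 signal of the 8 measured members (vertical axis, each panel spanning the same number of log2 units) on 3 GapmeR#4 arrays (red) and 3 control GapmeR arrays (blue). Points are arrays, black lines group means and bars at the side the SD. The groups are apart in every panel but that of HBEGF, and ERBIN has the widest gap (1.46 between the nearest arrays).

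NRAD1 itself (transcript cluster 16774436) had log2 signals of 2.96, 2.99 and 2.90 on the GapmeR#4 arrays and 3.43, 3.46 and 4.01 on the control arrays. All GapmeR#4 arrays were lower, and the log2 change of -0.69 (standard error 0.17) missed the threshold (limma, adjusted p = 0.0908). NRAD1 was dim on the arrays, with means of 2.95 in GapmeR#4 and 3.64 in control cells, below the array medians. The study measured its knockdown by QPCR. The array medians lay between 3.96 and 4.01, and correlations between arrays were 0.988 within GapmeR#4 pairs at the lowest, 0.988 within control pairs and 0.982 between groups. Of 8 epithelial and basal markers 5 had a named transcript cluster, and all 5 were above the array medians, with EPCAM at 11.5 in both groups and KRT5 at 6.76 in GapmeR#4 and 7.07 in control cells. Of 4 luminal markers, the hormone receptor PGR averaged 2.51 in GapmeR#4 and 2.61 in control cells, below the array medians, and ESR1 averaged 3.85 in GapmeR#4 and 4.11 in control cells. The luminal transcription factors were bright, GATA3 at 8.13 in GapmeR#4 and 7.82 in control cells and FOXA1 at 7.09 in GapmeR#4 and 7.05 in control cells. Of 10 stromal, endothelial and blood markers only PECAM1 and VWF were named, and both lay below the array medians. None of these markers passed limma at an adjusted p under 0.05 (3 at an unadjusted p under 0.05, KRT5 and PECAM1 lower and GATA3 higher).

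EPGN, EREG, AREG and BTC are neighbours on chromosome 4, and the bases before their start sites are shown because the first 3 genes moved one way and BTC the other. The RefSeq promoter table (GRCh38.p14) holds 8 of the 10 names, and ERBB3 and ERBIN are not among them. Each line gives the 250 bases before the annotated start, 5′ to 3′ on the strand of the gene. Capitals mark matches, on either strand, to TATAAA (the TATA box), CCAAT, TGACGTCA (the cAMP response element), TGANTCA (the AP-1 motif), GGGCGG (the SP1 motif) and CCGGAA (an ETS core).
EPGN (higher), chr4:74308220-74308469, plus strand: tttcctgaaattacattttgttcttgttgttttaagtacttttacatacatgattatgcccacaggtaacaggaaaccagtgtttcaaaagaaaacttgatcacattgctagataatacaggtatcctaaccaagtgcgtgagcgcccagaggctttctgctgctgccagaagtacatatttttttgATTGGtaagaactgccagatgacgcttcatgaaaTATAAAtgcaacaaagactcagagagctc
EREG (higher), chr4:74364895-74365144, plus strand: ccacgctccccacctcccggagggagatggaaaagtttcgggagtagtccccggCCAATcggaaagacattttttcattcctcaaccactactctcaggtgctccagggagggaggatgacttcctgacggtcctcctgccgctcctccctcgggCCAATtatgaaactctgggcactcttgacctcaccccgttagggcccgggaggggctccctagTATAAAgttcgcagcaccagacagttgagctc
AREG (higher), chr4:74444886-74445135, plus strand: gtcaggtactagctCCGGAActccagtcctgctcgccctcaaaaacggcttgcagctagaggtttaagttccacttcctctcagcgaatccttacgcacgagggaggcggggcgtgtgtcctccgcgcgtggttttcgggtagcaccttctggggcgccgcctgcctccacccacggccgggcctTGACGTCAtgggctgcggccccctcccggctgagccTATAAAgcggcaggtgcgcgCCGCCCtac
BTC (lower), chr4:74794524-74794773, minus strand: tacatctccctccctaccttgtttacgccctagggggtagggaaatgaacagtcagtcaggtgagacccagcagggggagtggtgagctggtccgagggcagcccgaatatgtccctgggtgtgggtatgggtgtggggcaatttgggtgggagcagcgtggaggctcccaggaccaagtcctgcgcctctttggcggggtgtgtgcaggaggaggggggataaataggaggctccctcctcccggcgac

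The windows of EPGN, EREG and AREG each hold TATAAA on the strand of the gene, 29, 32 and 29 bases before the start. Of 35114 RefSeq windows of this length, 2.17% hold it there between 25 and 35 bases before the start, and 10.7% hold it anywhere on either strand. The BTC window holds none of the 6 motifs in these letters, which says nothing about the factors that bind it. It does hold gataaa, which differs from TATAAA by 1 letter, between 25 and 35 bases before the start. Only exact matches were marked, so whether BTC has a TATA-type element was not tested. EREG has 2 matches to CCAAT and EPGN has 1, a motif in 32% of all windows. AREG has the only cAMP response element among the windows of the 8 names, 65 bases before the start, a motif in 1.65% of all windows, and also 1 match each to the SP1 and ETS motifs. Of the other names, EGFR has TATAAA 36 bases before the second of its listed starts. The genes also differ in base composition, with 38% G and C in the window of EPGN, 58% in EREG, 65.2% in AREG and 62% in BTC, against a median of 58% over all windows. These matches were looked at after the changes were known and describe the sequences only.

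EPGN encodes epigen, a low-affinity ligand of EGFR. Its transcript cluster (16967831) had log2 signals of 6.19, 6.11 and 5.99 on the GapmeR#4 arrays and 4.99, 4.41 and 4.94 on the control arrays. The GapmeR#4 arrays lay close together (SD 0.10) and the control arrays were spread more widely (SD 0.32), through the low signal of control replicate 2. This gave a log2 change of 1.32 (standard error 0.17), or 2.49-fold (adjusted p = 0.0171 from limma). This was the 20th largest increase among the 16098 transcript clusters with a symbol. Without control replicate 2 the change was 1.13 and the standard error 0.13, with an unadjusted p of 7.4e-05 (limma). With every array kept the unadjusted p from limma was 9.1e-05. The adjusted p without control replicate 2 was 0.0529, where 23 transcript clusters were lower and 44 higher in all. EPGN also missed 0.05 without any 1 of the GapmeR#4 arrays (changes of 1.27 to 1.37, adjusted p from 0.0592 to 0.065).

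EREG encodes epiregulin, a ligand of EGFR and ERBB4. Its transcript cluster (16967843) had log2 signals of 7.26, 7.23 and 7.47 on the GapmeR#4 arrays and 6.43, 6.59 and 6.61 on the control arrays. The nearest arrays of the groups were 0.61 apart, more than the range within either group. The log2 change was 0.77 (standard error 0.11), or 1.71-fold (adjusted p = 0.024 from limma), with a 95% confidence interval from 0.51 to 1.04.

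AREG encodes amphiregulin, the main EGFR ligand of the developing mammary duct in mice. Its transcript cluster (16967853) had log2 signals of 7.13, 7.06 and 7.17 on the GapmeR#4 arrays and 6.51, 6.55 and 6.63 on the control arrays. The arrays of a group lay close together (SD 0.05 in GapmeR#4 and 0.07 in control cells), and their nearest arrays were 0.43 apart. Their means differed by 0.56 on the log2 scale (standard error 0.10), or 1.48-fold (adjusted p = 0.0356 from limma). Older annotations carry a duplicate copy of the gene under the symbol AREGB, and whether probes of both were counted here is not given in the sources used. Without any 1 of the 6 arrays neither EREG nor AREG passed. The change of EREG then lay between 0.70 and 0.82 (limma, adjusted p from 0.0606 to 0.0956), and that of AREG between 0.53 and 0.60 (adjusted p from 0.07 to 0.14).

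BTC encodes betacellulin, a ligand of EGFR and ERBB4. Its transcript cluster (16976868) had log2 signals of 4.90, 5.21 and 4.86 on the GapmeR#4 arrays and 6.25, 6.15 and 6.27 on the control arrays. Every GapmeR#4 array was at least 0.94 below every control array. BTC thus had a log2 change of -1.23 (standard error 0.12), a 2.35-fold decrease (adjusted p = 0.00927 from limma) and the 35th largest among transcript clusters with a symbol. Without control replicate 2 the change was -1.27 with an adjusted p of 0.0529, and without any 1 of the other arrays it passed.

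HBEGF encodes heparin-binding EGF-like growth factor. Its transcript cluster (17000724) had log2 signals of 4.73, 4.34 and 4.46 on the GapmeR#4 arrays and 4.39, 4.33 and 4.27 on the control arrays. GapmeR#4 replicate 1 was high, and the other two GapmeR#4 arrays lay at or near the control arrays. The log2 change was 0.19 (standard error 0.13, adjusted p = 0.539 from limma), with a 95% confidence interval from -0.11 to 0.48. Its signal was not far above the array medians in either group.

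Of the receptors, EGFR (17046135) had log2 signals of 10.12, 10.25 and 10.28 on the GapmeR#4 arrays and 10.66, 10.62 and 10.46 on the control arrays. The groups did not overlap, and their nearest arrays were 0.18 apart. EGFR was among the brightest transcript clusters of the arrays, above 98.1% of them in GapmeR#4 and above 98.7% in control cells. EGFR fell short of the threshold at a log2 change of -0.36 (limma, standard error 0.11 and adjusted p = 0.142), with a 95% confidence interval from -0.61 to -0.11. With an intensity trend and robust prior in limma the same change had an adjusted p of 0.0414. That was the only 1 of 13 alternatives in which EGFR passed, and limma without control replicate 2 gave 0.348.

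ERBB3 (16752397) had log2 signals of 6.80, 6.77 and 6.59 on the GapmeR#4 arrays and 7.21, 7.24 and 7.03 on the control arrays. In both groups replicate 3 was the lowest, and all GapmeR#4 arrays were below all control arrays. Its log2 change of -0.44 missed the threshold (limma, standard error 0.11 and adjusted p = 0.102), with a 95% confidence interval from -0.71 to -0.18. Among the brighter 50% of transcript clusters alone the adjusted p was 0.0426. That was the only 1 of 13 alternatives in which ERBB3 passed, and limma without control replicate 2 gave 0.294.

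The receptors and ligands left out of the 10 names did not pass the test. ERBB4, EGF and the neuregulins NRG1, NRG2, NRG3 and NRG4 were all measured, and their log2 changes ran from -0.38 to 0.21 with a median of 0.01 (limma, 0 of 6 called, 1 at an unadjusted p under 0.05). NRG2 and EGF, a neuregulin and the founding ligand of EGFR, had the smallest p-values. NRG2 averaged 4.56 ± 0.22 in GapmeR#4 and 4.94 ± 0.14 in control cells (SD, n = 3 each, adjusted p = 0.245 from limma), while its dimmer transcript cluster had a change of 0.11, and EGF averaged 4.44 ± 0.16 in GapmeR#4 and 4.66 ± 0.04 in control cells (SD, n = 3 each, adjusted p = 0.389). Only these 2 of the 6 had a control mean above the array medians, so changes in the other 4 rest on dim signals. ERBB4 averaged 3.02 in GapmeR#4 and 2.80 in control cells.

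ERBIN is a LAP protein, with leucine-rich repeats and a PDZ domain, that binds ERBB2 at its carboxyl terminus and sits at the basolateral membrane of epithelial cells. Its transcript cluster (16985353) had log2 signals of 7.11, 6.84 and 6.44 on the GapmeR#4 arrays and 8.56, 8.79 and 9.06 on the control arrays. The spread within the groups was among the larger ones of the members (SD 0.34 in GapmeR#4 and 0.25 in control cells), and the gap of 1.46 between the nearest arrays was larger than the range within either group (0.67 in GapmeR#4 and 0.49 in control cells). The log2 change was -2.01 (standard error 0.20, adjusted p = 0.00907 from limma), with a 95% confidence interval from -2.48 to -1.54. It was the 4th largest decrease of all transcript clusters and the 3rd largest of those with a symbol. In GapmeR#4 cells ERBIN was above 83.9% of the transcript clusters of an array, and in control cells above 94.7%. Without control replicate 2 the change was -2.02 and the adjusted p 0.0529, and without any 1 of the other arrays it passed.

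**Figure D2:**
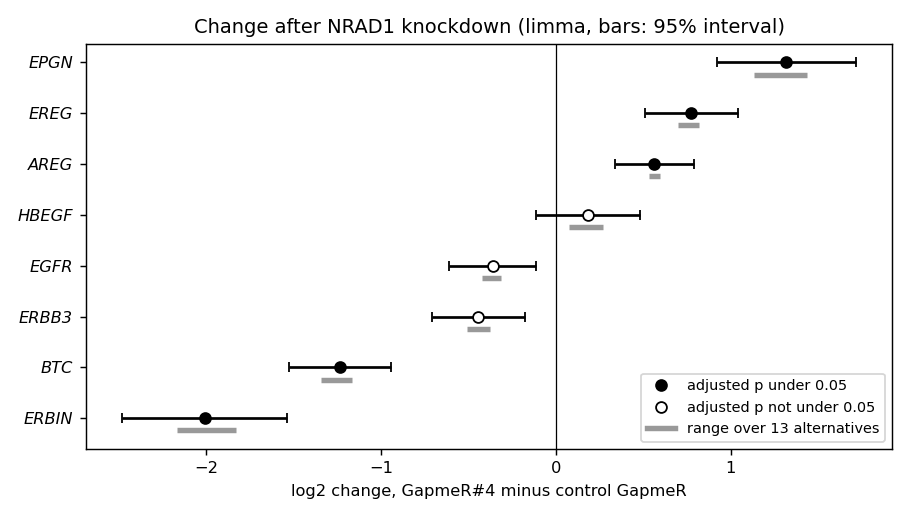
Log2 change (horizontal axis, GapmeR#4 minus control GapmeR) of the 8 measured members from limma, with 95% confidence intervals from 3 arrays per group. Filled points passed an adjusted p under 0.05, and grey bars give the range over 13 alternative settings. The changes run from -2.01 for ERBIN to 1.32 for EPGN, and no alternative changes a sign.

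The genes around these members were set beside them, ordered by the RefSeq gene table, which serves for order only, as no source used here names the build behind the array design. On chromosome 4 the order is EPGN, EREG, AREG and BTC. Before EPGN, MTHFD2L, a mitochondrial folate enzyme, had log2 signals of 5.30, 5.47 and 5.27 on the GapmeR#4 arrays and 4.44, 4.98 and 4.62 on the control arrays, which differed by 0.67 (limma, adjusted p = 0.0773) without overlap. It is the one of 8 other neighbours in the promoter table with TATAAA in the same position, 31 bases before one of its starts. The chemokine genes CXCL2, CXCL3 and CXCL5 and the pseudogene PPBPP2, further on that side, had changes between -0.06 and 0.07. On the other side, PARM1 had a change of -0.18, and LINC02483, THAP6, ODAPH and CDKL2 had changes of 0.10, 0.37, 0.18 and 0.29. None of these 10 neighbours passed an adjusted p under 0.05 from limma, and CXCL3, CXCL5, PPBPP2, LINC02483, ODAPH and CDKL2 had control means below the array medians.

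Around ERBIN on chromosome 5, none of the 10 nearest measured genes passed either. TRAPPC13, a subunit of a vesicle transport complex, had log2 signals of 6.37, 6.26 and 5.90 on the GapmeR#4 arrays and 6.72, 6.90 and 7.25 on the control arrays, a difference of -0.78 (limma, adjusted p = 0.0792). CWC27, a spliceosome protein, went the other way, with signals of 8.73, 8.57 and 8.55 on the GapmeR#4 arrays and 7.88, 7.90 and 8.28 on the control arrays and a log2 change of 0.60 (adjusted p = 0.0775). The adjoining genes NLN and SREK1 had changes of 0.18 and 0.35. CENPK, PPWD1, MAST4, CD180, CCNB1 and CENPH lay between -0.20 and 0.42.

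**Figure D3:**
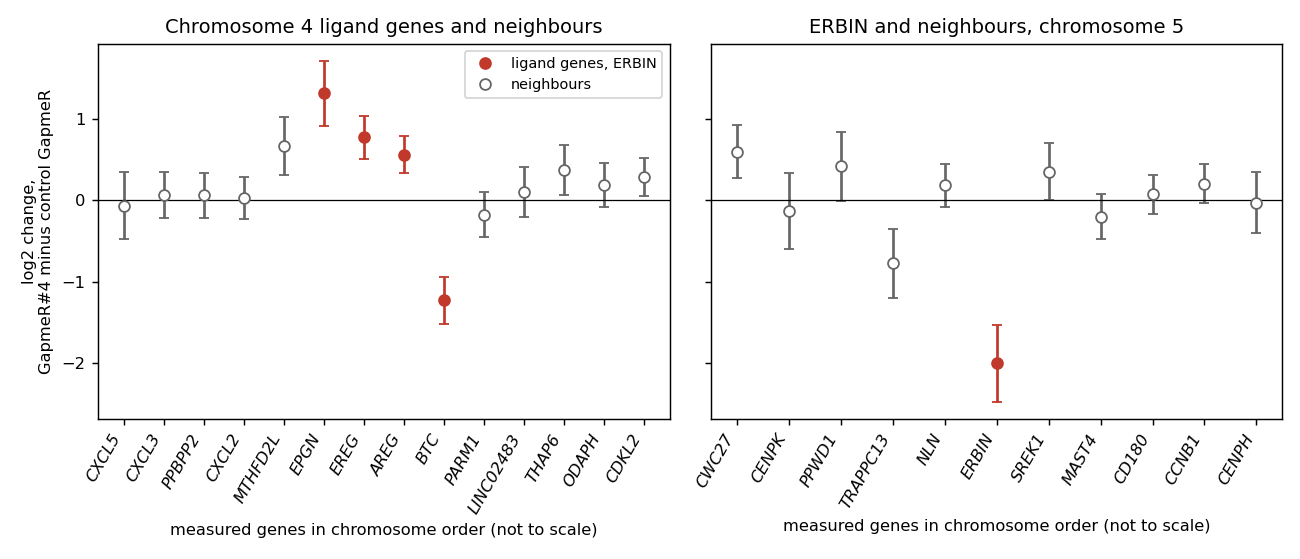
Log2 change (vertical axis, GapmeR#4 minus control GapmeR, limma, 95% confidence intervals) of the ligand genes of chromosome 4 (left) and ERBIN (right) in red and of 5 measured neighbours on each side in grey, in chromosome order and not to scale. Filled points passed an adjusted p under 0.05. The 4 ligand genes and ERBIN, picked on this comparison, did, and the 20 neighbours did not. Over all transcript clusters 1.42% were called lower and 1.15% higher.

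The wider pathway was taken from 6 lists with 120 genes, of which 81 had a named transcript cluster, each taken by its brightest one. Limma called 2 of them lower (2.47%) and 0 higher after adjustment, where 23 were lower and 6 higher at an unadjusted p under 0.05. Among all 14884 named genes limma called 2.56% lower and 1.49% higher after adjustment. At an unadjusted p under 0.05, 12.6% of all named genes were lower and 10.5% higher. The methods' t-test called 0 of the 81 genes, where it called 4 transcript clusters lower and 8 higher in all. The median log2 change of the 81 genes was -0.15, with 57 negative and 24 positive, and that of all named genes was 0.00256.

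The shedding list holds ADAM proteases, the iRhom proteins RHBDF1 and RHBDF2, their partner FRMD8 and the ADAM inhibitor TIMP3. It gave no call among 10 measured genes, with a median log2 change of -0.14 (limma, 3 at an unadjusted p under 0.05, all lower: RHBDF2, ADAM10 and TIMP3). TIMP3 is named after its values were seen and differed by -0.40 on the log2 scale (limma, adjusted p = 0.156). RHBDF2, the iRhom2 protein that carries ADAM17 to the cell surface, had log2 signals of 5.23, 4.74 and 5.43 on the GapmeR#4 arrays and 6.05, 5.80 and 5.82 on the control arrays (log2 change -0.75, adjusted p = 0.0935). ADAM10, which sheds betacellulin in mouse cells, had signals of 9.17, 8.92 and 8.90 on the GapmeR#4 arrays and 9.40, 9.45 and 9.49 on the control arrays (log2 change -0.45, adjusted p = 0.0941). For both genes the groups did not overlap.

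Among 11 measured genes listed for receptor inhibition and degradation, 0 were called (limma, 5 at an unadjusted p under 0.05, 2 lower and 3 higher). Their median was -0.06, and the list does not sort them by the direction in which they act on the receptors. UBASH3B, a phosphatase that acts on activated receptors, averaged 8.28 ± 0.03 in GapmeR#4 and 8.80 ± 0.14 in control cells (SD, n = 3 each, log2 change -0.52, adjusted p = 0.0578 from limma). LRIG3, a transmembrane protein of the same family as the receptor inhibitor LRIG1, averaged 7.06 ± 0.12 in GapmeR#4 and 6.59 ± 0.06 in control cells (SD, n = 3 each, log2 change 0.47, adjusted p = 0.0744).

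The adaptors and kinases had a median of -0.16 over 29 measured genes, and STAT5B was the only one called (limma, 9 at an unadjusted p under 0.05, 7 lower and 2 higher). STAT5B, a transcription factor that receptor tyrosine kinases and JAK kinases phosphorylate, had log2 signals of 5.66, 5.85 and 5.54 on the GapmeR#4 arrays and 6.44, 6.33 and 6.25 on the control arrays. On the log2 scale it fell by 0.66 (limma, standard error 0.12, adjusted p = 0.0412), and it missed 0.05 without any 1 array (adjusted p from 0.0715 to 0.141). STAT3 and STAT5A, its relatives, were named after their values were seen and had log2 changes of -0.16 and -0.27, neither called.

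Of 16 genes of receptor endocytosis and sorting, 0 were called (limma, 6 at an unadjusted p under 0.05, 5 lower and 1 higher), with a median of -0.23. EPS8, an EGFR kinase substrate that links the receptor to the actin skeleton, had the largest increase of the list. It averaged 7.92 ± 0.08 in GapmeR#4 and 7.30 ± 0.17 in control cells (SD, n = 3 each, log2 change 0.61, adjusted p = 0.0507 from limma). EPN2, an endocytic adaptor of the epsin family, averaged 6.26 ± 0.04 in GapmeR#4 and 6.70 ± 0.13 in control cells (SD, n = 3 each, log2 change -0.45, adjusted p = 0.0832).

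The last list held the other LAP proteins and binding partners of ERBIN, 9 of them measured, with a median of -0.23 (limma, 5 at an unadjusted p under 0.05, all lower). PKP4, also called p0071, is an armadillo protein of cell junctions that binds the PDZ domain of ERBIN. It had log2 signals of 7.63, 7.45 and 7.38 on the GapmeR#4 arrays and 8.20, 8.30 and 8.22 on the control arrays. It fell by 0.76 (standard error 0.11, adjusted p = 0.0222 from limma) and was the only gene of the list called. Without 1 array its adjusted p lay between 0.0438 and 0.101, and it passed only when the array left out was GapmeR#4 replicate 1. The LAP proteins SCRIB and LRRC1, named after their values were seen, had log2 changes of -0.30 and -0.02, and neither was called.

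**Figure D4:**
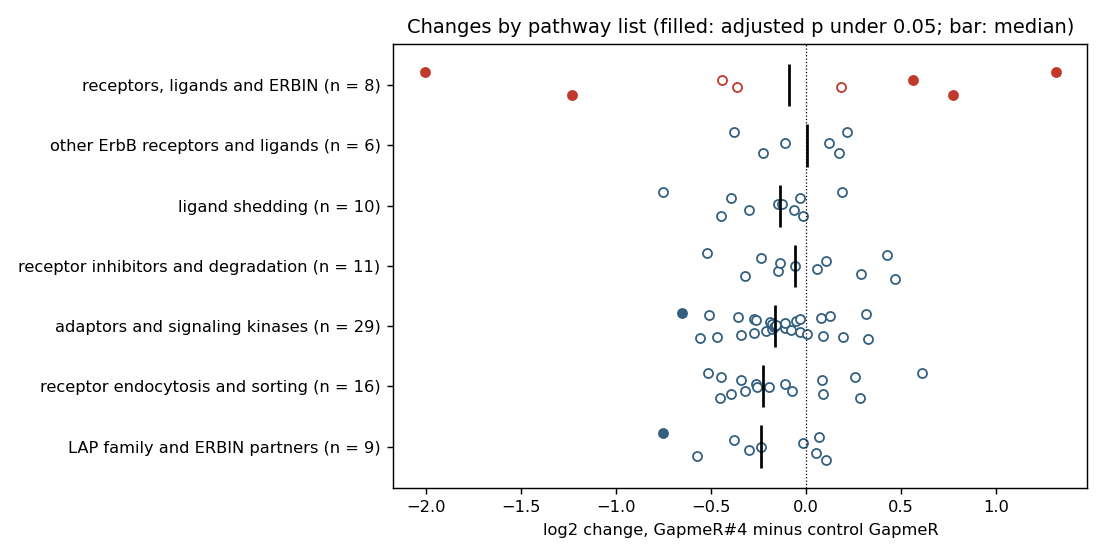
Log2 change (horizontal axis, GapmeR#4 minus control GapmeR) of the 8 measured members (top row, red) and of 81 genes in 6 pathway lists (blue), with 1 point per gene and a black bar at the median of each row. Filled points passed an adjusted p under 0.05: 5 members, STAT5B and PKP4.

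The profiles of ERBIN and EPGN over the 6 arrays were also set against the 11105 other transcript clusters with a symbol and a mean signal above the median. Those most like ERBIN were DOCK8, an exchange factor for the small GTPase CDC42, UEVLD and MTRES1 (Pearson r from 0.998 to 1.00), with log2 changes of -0.62, -0.84 and -0.83. Those most like EPGN were ZNF420, CEP170P1 and TRIM52 (Pearson r from 0.992 to 0.994), with log2 changes of 0.68, 0.43 and 0.52. With 6 arrays in 2 groups and so many candidates, such values describe these arrays only.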

How the data were processed

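The authors processed the arrays with Affymetrix software (Expression Console per the labels, Transcriptome Analysis Console per the methods) and deposited 1 log2 signal per transcript cluster and array. For versions, normalization and genome build: not given in the sources used here. These signals were used without change. Precision is limited by the number of arrays. Samples were grouped by the submitters' titles. All 53617 transcript clusters were fitted with limma 3.58.1 in R 4.3.3 as 2 groups, without filter, 2-sided, with Benjamini-Hochberg adjustment. Standard errors and 95% confidence intervals come from the moderated variances. The code was tested on simulated data. Symbols come from the platform annotation (16098 transcript clusters), and for AREG from the study's supplemental gene table. The comparisons in that table (fold changes, p-values) were not used, other than through which genes it lists.

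The members and lists were chosen with earlier results of these data known. The rule for named genes covers all members, called genes of each list or else the 2 smallest p-values, 5 measured neighbours per side, the profiles most like the members with the largest decrease and increase, and NRAD1. Alternatives were the brighter 50% of transcript clusters, an ordinary t-test, an intensity trend with robust prior, median centring, quantile normalization, array weights, a block on the replicate number, leaving out each array, and, for the lists, the mean over a gene's transcript clusters. The methods name the t-test for comparing 2 samples, and here it was given the Benjamini-Hochberg adjustment. For its arrays the study used an ANOVA p-value and a 1.7-fold cutoff instead. For STAT5B and PKP4 alone the alternatives were added after the data were seen. Promoter windows and gene order come from RefSeq tables of GRCh38.p14.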

Additional observations from a re-analysis of the deposited data

How the results depend on the processing

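No alternative changed the sign of any of the 8 members. The ordinary t-test left 0 members lower and 0 higher after Benjamini-Hochberg adjustment (adjusted p from 0.0663 to 0.103 for the 5 called by limma), and 0 pathway genes lower, where it called 4 transcript clusters lower and 8 higher in all. With the replicate number as a block, 0 members were lower, 0 were higher and 0 pathway genes were lower, and the adjusted p was 0.0544 for ERBIN, 0.0552 for BTC, 0.0585 for EPGN, 0.0775 for EREG and 0.12 for AREG (limma, with 35 transcript clusters lower and 55 higher in all). Same-numbered arrays deviated from their group means with correlations of -0.06, -0.00476 and -0.02, and differently numbered arrays with correlations from -0.04 to 0.06. These values show no pairing by number, but with 3 arrays in a group they cannot exclude it. With 1 array left out, 0 to 2 members were lower and 0 to 1 higher, and 0 to 1 pathway genes lower, fewest without control replicate 2, when 23 transcript clusters were lower and 44 higher in all. Over all such fits these numbers were 23 to 236 and 44 to 269. Pathway genes lower and higher numbered 9 and 2 among the brighter 50% of transcript clusters (1466 and 1282 in all), 8 and 2 with the intensity trend and robust prior (1273 and 1176 in all), and 4 and 1 with array weights (1052 and 862 in all). Quantile normalization gave 4 lower (743 lower and 571 higher in all), median centring gave 1 higher (726 lower and 605 higher in all), and the mean over a gene's transcript clusters gave 2 lower and 0 higher. ERBB3 joined the members called lower among the brighter 50% (3 in all), and EGFR did with the trend and robust prior (3 in all). The median of the pathway genes stayed between -0.16 and -0.13 under the alternatives other than that mean, and that of all named genes between -0.01 and 0.01. Low signal limits ERBB4, NRG1, NRG3, NRG4, ADAM12 and NRAD1, whose group means were below the array medians.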
